A study of Mus musculus with 16 samples.

Results

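The transcripts described here encode the classical major histocompatibility complex (MHC) class I molecule and the machinery that supplies its peptides, in mouse bone marrow-derived macrophages. They are the 10 genes B2m, H2-K1, H2-D1, Tap1, Tap2, Tapbp, Nlrc5, Psmb8, Psmb9 and Psmb10, taken by gene name from the 56748 genes of the count table, and all 10 passed the filter on low counts that left 13438 genes for testing. Macrophages were grown from the bone marrow of 4 wild-type male C57BL6 mice in medium with supernatant of L929 cells, and each mouse gave 1 poly(A) RNA-seq library to each of 4 groups. The SR9009 and LPS group received 10 µM SR9009 for 16 h and then 100 ng/mL lipopolysaccharide (LPS) for 6 h. The LPS group received the same dose of LPS for 6 h, the SR9009 group received SR9009 without LPS, and the DMSO group received the vehicle. Whether the LPS group had vehicle overnight is not stated sample by sample. SR9009 is a synthetic agonist of the REV-ERB nuclear receptors, which repress transcription in the circadian clock, and LPS is the bacterial ligand of Toll-like receptor 4. The same 4 mice thus recur in every group.

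Class I molecules display peptides from the cell's own proteins to CD8+ T cells, and nearly every nucleated cell makes them. Each consists of a heavy chain (here H2-K1 and H2-D1) and the light chain beta-2 microglobulin (B2m). The peptides are cut by the proteasome, carried into the endoplasmic reticulum by the Tap1 and Tap2 transporter and loaded with the help of tapasin (Tapbp). In cells exposed to interferons the catalytic subunits Psmb8, Psmb9 and Psmb10 replace Psmb5, Psmb6 and Psmb7 in newly built proteasomes, which gives the immunoproteasome. Nlrc5 is the transactivator of class I genes, the counterpart of Ciita for class II.

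All 8 macrophage markers were expressed, with summed levels of 5586 to 10561 CPM (counts as a share of the TMM-scaled library size). Markers of other blood and stromal cells were low. The 7 neutrophil markers summed to at most 7.24 CPM (Ly6g at 0 in every library), the 5 T cell markers to at most 9.73 CPM (mostly Cd4, with Trbc2 at 0), and the dendritic cell, B cell and fibroblast lists to at most 1.74, 1.84 and 1.50 CPM. Libraries held 12616442 to 24214863 counts and 13298 to 18947 detected genes. The SR9009 library of mouse 1 stood apart: it had the lowest macrophage marker sum (5586 CPM), the lowest total, the lowest number of genes (16419 to 18947 in the other 15 libraries) and the highest mitochondrial share (1.64% of counts, against 0.462% to 1.22% in the others). Results that its removal changes are given with and without it, and its origin was not tested.

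Of the 10 genes, 7 lie on chromosome 17, where the mouse MHC is, in the coordinates of the deposited table (GRCm39). Psmb9, Tap1, Psmb8 and Tap2 stand side by side in a stretch of 34335 bases, with 495 bases between Tap1 and Psmb8 and 2072 between Psmb8 and Tap2. The Tap1 and Psmb9 gene spans overlap by 212 bases on opposite strands, so reads there cannot be assigned to one of them without strand information, which is not given in the sources used here. H2-K1 (34214991 to 34219321, minus strand) and H2-D1 (35481706 to 35486475, plus strand) are paralogs of each other and of other class I heavy chains. Where their sequences match, their separate levels depend on how shared reads were counted and are uncertain. B2m lies on chromosome 2 (121978167 to 121983564, plus strand), and Nlrc5 and Psmb10 lie on chromosome 8.

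Promoter windows of 300 bases (250 before the annotated start and 50 from it) were taken from RefSeq on GRCm38.p6, where 8 of the 10 genes had an entry. Those of B2m, H2-K1, H2-D1 and Tap1 are printed, the first 3 because they carry an interferon or NF-kB motif and encode the chains of the class I molecule itself. For H2-K1 the first of 2 annotated starts is shown. Capitals mark the interferon-stimulated response element core, GAAANNGAA, in B2m and letters within the NF-kB motif, GGGNNTTCC, in H2-K1 and H2-D1, while the other motifs searched are left unmarked. Tap1 has no capitals and is printed since its window and that of Psmb9 share 275 bases of the same DNA, read in opposite directions.
B2m, chr2:122147437-122147736, plus strand: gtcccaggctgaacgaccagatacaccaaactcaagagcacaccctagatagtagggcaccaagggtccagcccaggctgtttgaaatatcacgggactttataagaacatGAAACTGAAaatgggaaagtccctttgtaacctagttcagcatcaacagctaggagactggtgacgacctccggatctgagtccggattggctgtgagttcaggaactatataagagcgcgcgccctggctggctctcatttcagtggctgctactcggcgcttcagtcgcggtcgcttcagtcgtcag
H2-K1, chr17:34000298-34000597, minus strand: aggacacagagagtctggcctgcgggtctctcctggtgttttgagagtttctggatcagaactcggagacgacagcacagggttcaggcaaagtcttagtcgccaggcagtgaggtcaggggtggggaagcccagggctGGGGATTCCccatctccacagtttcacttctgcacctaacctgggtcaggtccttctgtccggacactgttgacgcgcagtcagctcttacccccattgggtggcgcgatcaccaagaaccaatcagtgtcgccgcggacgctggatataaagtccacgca
H2-D1, chr17:35262844-35263143, plus strand: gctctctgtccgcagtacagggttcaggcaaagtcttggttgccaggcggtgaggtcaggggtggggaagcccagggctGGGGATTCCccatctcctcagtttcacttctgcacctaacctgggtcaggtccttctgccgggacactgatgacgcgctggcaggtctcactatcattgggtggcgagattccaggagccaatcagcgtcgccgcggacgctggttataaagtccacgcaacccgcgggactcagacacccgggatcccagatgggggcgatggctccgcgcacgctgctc
Tap1, chr17:34187306-34187605, plus strand: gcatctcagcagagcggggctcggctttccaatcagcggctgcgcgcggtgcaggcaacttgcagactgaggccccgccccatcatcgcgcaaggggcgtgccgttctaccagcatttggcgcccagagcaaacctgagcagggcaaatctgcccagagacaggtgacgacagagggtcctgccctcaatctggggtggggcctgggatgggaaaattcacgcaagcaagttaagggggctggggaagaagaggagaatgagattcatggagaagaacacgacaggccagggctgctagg

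Each motif was searched on both strands. The response element core occurred in 1 of the 8 members with a window, B2m, starting at base 112 of the window, and in 8.56% of 32851 promoter windows. Only these exact letters were counted, so windows without them, among them those of H2-K1 and H2-D1, may hold other forms of the element. GGGNNTTCC occurred in H2-K1 (base 140) and H2-D1 (base 80), in both as GGGGATTCC, and in 5.82% of all windows. The same limit holds here: windows without these exact letters, among them that of B2m, may hold other forms of the NF-kB motif. CCAAT, the Y box of class I promoters, was in 6 of 8 (B2m, H2-K1, H2-D1, Tap1, Psmb9 and Tapbp) and in 37.4% of all windows. TTCNNNGAA, the GAS core, was in Psmb8 and in 8.30% of windows, and TAGGTCA, letters within the REV-ERB response element, was in 0 of 8 and in 2.61% of windows. These matches describe the letters in these windows.

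Transcripts of the light and heavy chains were by far the most abundant of the 10 per unit of length. In FPKM (fragments per kilobase, scaled to library size by the authors), the LPS group averaged 4715 for B2m, 1519 for H2-D1, 1181 for H2-K1, 438 for Tapbp, 272 for Psmb10, 167 for Tap1, 116 for Psmb8, 89.1 for Tap2, 72.7 for Nlrc5 and 63.7 for Psmb9. Nlrc5 overlapped with both of its neighbours in this order, and every other neighbouring pair had ranges apart. In the DMSO group the order began in the same way, with 2931 FPKM for B2m, 1045 for H2-D1, 686 for H2-K1, 118 for Tapbp and 47.7 for Psmb10. Psmb8 (35.0) overlapped with Tap1 (32.3), and Psmb9 (19.6) with Tap2 (19.2), while Nlrc5 had the lowest level at 8.89 FPKM. With SR9009 and LPS the means were 3903 for B2m, 1259 for H2-D1, 933 for H2-K1 and 305 for Tapbp, followed by 6 genes whose neighbours overlapped, between 125 for Tap1 and 42.0 for Psmb9. With SR9009 they were 5349.7 for B2m (2451 without mouse 1), 922 for H2-D1, 506 for H2-K1 and 68.1 for Tapbp, with H2-D1 and H2-K1 overlapping, and again 6 with overlapping neighbours, between 21.0 for Psmb8 and 5.29 for Nlrc5. Without mouse 1, H2-D1 (1083) and H2-K1 (542) were apart, and Psmb10 (26.1) stood above Psmb8 (25.5) with overlapping ranges.

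The light chain and heavy chains are described first. B2m, in mice 1 to 4, had 3928, 3497, 3324 and 2789 CPM with SR9009 and LPS, 4235, 4805, 3468 and 3607 CPM with LPS, 11748, 2470.3, 2323 and 1984 CPM with SR9009, and 2692, 2994, 2381 and 2314 CPM with DMSO. The SR9009 library of mouse 1 was the highest of all 16, and the other 15 lay between 1984 and 4805 CPM. H2-K1, which encodes the Kb heavy chain in this strain, had 2640.0, 3268, 2515 and 2644 CPM with SR9009 and LPS, 3406, 3962, 3190.2 and 3252 CPM with LPS, 1138, 2139, 1606 and 1371 CPM with SR9009, and 2132, 2462, 1890.2 and 1812 CPM with DMSO. The lowest of the 16 values was in the SR9009 library of mouse 1. H2-D1, which encodes the Db heavy chain, had 2917, 3818, 3080.0 and 3299 CPM with SR9009 and LPS, 3746, 4636, 3616 and 3593 CPM with LPS, 1095, 3304, 3217 and 2464 CPM with SR9009, and 2863, 3269.6, 2585 and 2379 CPM with DMSO. For all 3 genes each of the 4 LPS libraries lay above every DMSO library.

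The transporter, its loading factor and the transactivator followed with wider differences. Tap1 had 737, 945, 505 and 571 CPM with SR9009 and LPS, 983, 1019, 783 and 844 CPM with LPS, 33.0, 195, 106 and 95.5 CPM with SR9009, and 182, 223, 149.8 and 173 CPM with DMSO. Tap2, its partner subunit, had 156, 244, 231 and 246 CPM with SR9009 and LPS, 304, 342, 340.0 and 357 CPM with LPS, 10.6, 91.2, 64.2 and 59.3 CPM with SR9009, and 84.8, 93.0, 61.3 and 59.9 CPM with DMSO. Tapbp, which holds the empty class I molecule at the transporter, had 1092, 1303, 967 and 1106 CPM with SR9009 and LPS, 1669, 1740.4, 1461 and 1444 CPM with LPS, 145, 385, 284 and 230.3 CPM with SR9009, and 491, 585, 327 and 365 CPM with DMSO. For these 3 genes both groups with LPS lay above both groups without it in every library. Nlrc5 had 213, 533, 411 and 420.3 CPM with SR9009 and LPS, 632, 698, 539 and 588 CPM with LPS, 28.8, 50.9, 51.8 and 58.1 CPM with SR9009, and 73.1, 103, 64.5 and 70.5 CPM with DMSO. Its SR9009 libraries all lay below the DMSO libraries, and its SR9009 and LPS libraries all lay below the LPS libraries.

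The immunoproteasome subunits followed much the same order of groups. Psmb8 had 187, 271, 248 and 255 CPM with SR9009 and LPS, 366, 405, 369 and 417 CPM with LPS, 24.9, 107, 88.5 and 82.0 CPM with SR9009, and 125, 136, 108 and 119 CPM with DMSO. Psmb9 had 139.7, 203, 124 and 153 CPM with SR9009 and LPS, 248, 282, 185 and 212 CPM with LPS, 7.87, 61.4, 47.2 and 41.6 CPM with SR9009, and 77.1, 83.1, 65.2 and 69.9 CPM with DMSO. Psmb10 had 119.7, 193, 228 and 269 CPM with SR9009 and LPS, 394, 511, 448 and 496 CPM with LPS, 3.14, 51.4, 50.7 and 41.1 CPM with SR9009, and 79.9, 110.2, 69.2 and 75.2 CPM with DMSO. For Psmb8 and Psmb10 the LPS libraries were highest, then those with SR9009 and LPS, then DMSO, then SR9009, with no overlap between any of these groups. For Psmb9 the same order of means held, but the SR9009 and LPS libraries (124 to 203 CPM) overlapped with the LPS libraries (185 to 282 CPM). In the SR9009 library of mouse 1 Psmb10 had 45 counts in all, against 1213 to 1407 in the other 3 SR9009 libraries.

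LPS against DMSO asks what the Toll-like receptor ligand did to these transcripts without the agonist. Transcripts of 8 of the 10 genes rose and 0 fell, where 19.4% of the 13438 genes tested rose and 20.4% fell (edgeR quasi-likelihood test, Benjamini-Hochberg adjusted p under 0.05 over all genes tested). The median log2 fold change of the 10 was 1.76, beside −0.08 over all genes tested. For all 10 the ranges of the 4 libraries were apart, which held in this direction for 27% of all genes. In whole-culture RNA, a change in the RNA of each cell and a change in the share of cells that carry it cannot be told apart. The summed neutrophil markers were also higher with LPS, at 0.707 to 5.75 CPM with SR9009 and LPS, 2.16 to 7.24 CPM with LPS, 0.256 to 0.906 CPM with SR9009 and 0.182 to 0.385 CPM with DMSO. Only S100a8 of the 7 averaged at least 1 CPM, and neither the cells that carried these transcripts nor their part in the changes was tested.

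Nlrc5 had the largest log2 fold change of the 10, 2.98 (SE 0.29, adjusted p = 1.26e-06), with 614 ± 67.2 CPM in LPS libraries and 77.7 ± 17.1 CPM in DMSO libraries (SD, n = 4 each). Psmb10 followed with 2.47 (SE 0.54, adjusted p = 0.00179) and Tap1 with 2.32 (SE 0.38, adjusted p = 0.000191). Tap2 rose by 2.17 and Tapbp by 1.84 on the log2 scale (adjusted p = 0.000779 and 5.98e-05). Of the other catalytic subunits Psmb8 rose by 1.67 and Psmb9 by 1.65 (adjusted p = 0.000505 and 0.00409). Among the abundant chains, H2-K1 rose by 0.74 (SE 0.20, adjusted p = 0.00906), with 3453 ± 352 CPM in LPS libraries and 2074 ± 292 CPM in DMSO libraries. Its call was lost without mouse 3 or mouse 4 (adjusted p = 0.0720 and 0.0808).

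B2m and H2-D1 did not pass with all libraries, at 0.63 (SE 0.44, adjusted p = 0.274) and 0.49 (SE 0.27, adjusted p = 0.165). Both passed when the SR9009 library of mouse 1 was left out, although that library is in neither group, because all groups share 1 estimate of the spread: B2m then gave 0.62 (SE 0.16, adjusted p = 0.00331) and H2-D1 0.48 (SE 0.15, adjusted p = 0.0129). All 10 genes then rose, where 26.8% of 13645 genes did.

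SR9009 together with LPS against SR9009 alone asks for the LPS effect in the presence of the agonist. It shares no library with the comparison above, but the same 4 mice and the same estimate of the spread serve both. It is thus no independent repeat. Transcripts of 8 of the 10 genes rose and 0 fell, where 14.5% of all genes tested rose and 15.8% fell. The ranges were apart for 8 of 10, and for 13.9% of all genes in this direction. Nlrc5 rose by 3.06, Tap1 by 2.68, Psmb10 by 2.46, Tapbp by 2.10, Psmb9 by 1.97, Tap2 by 1.96, Psmb8 by 1.67 and H2-K1 by 0.82 on the log2 scale (adjusted p between 1.36e-06 for Nlrc5 and 0.00599 for H2-K1). The H2-K1 call was lost without mouse 4 (adjusted p = 0.0677). The median of the 10 was 1.96, beside −0.12 over all genes tested. H2-D1 gave 0.38 (SE 0.27, adjusted p = 0.315). The sign of B2m rested on the SR9009 library of mouse 1: with it the log2 fold change was −0.45 (SE 0.44, adjusted p = 0.479), and without it 0.65 (SE 0.17, adjusted p = 0.00641). Without that library 9 of 10 rose, all but H2-D1, where 22.7% of genes did. The 8 genes called with all libraries then had log2 fold changes between 0.76 for H2-K1 and 2.94 for Nlrc5.

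SR9009 together with LPS against LPS asks what the agonist did to LPS-treated cells. All 10 log2 fold changes were below 0 and all 10 genes were lower in 4 of 4 mice, which 22.9% of all genes tested were. With all libraries none of the 10 passed the test in edgeR, where 1.06% of all genes rose and 0.737% fell. DESeq2, limma-voom and limma on FPKM called 0 of 10. The median log2 fold change of the 10 was −0.54, beside 0.02 over all genes. The ranges of the 4 libraries were apart for 5 of the 10 (Tapbp, Tap2, Nlrc5, Psmb8 and Psmb10), and in this direction for 7.78% of all genes.

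Psmb10 had the largest difference, −1.19 (SE 0.52, adjusted p = 0.313), with 202 ± 63.2 CPM in SR9009 and LPS libraries and 462 ± 53.0 CPM in LPS libraries (SD, n = 4 each). Psmb8 gave −0.70 (SE 0.31, adjusted p = 0.320), with 240.4 ± 36.7 CPM in SR9009 and LPS libraries and 389 ± 25.4 CPM in LPS libraries. Both passed when the SR9009 library of mouse 1 was left out of the shared estimate of the spread, at −1.16 (SE 0.21, adjusted p = 0.00324) for Psmb10 and −0.66 (SE 0.13, adjusted p = 0.00478) for Psmb8, where 4.79% of 13645 genes fell. Nlrc5 gave −0.64 (SE 0.27, adjusted p = 0.294), Tap2 −0.61 (SE 0.41, adjusted p = 0.575) and Tapbp −0.50 (SE 0.26, adjusted p = 0.431). The other 5 lay between −0.58 for Psmb9 and −0.25 for H2-D1, with adjusted p between 0.549 and 0.885.

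Since each mouse gave a library to every group, the comparison was also fitted with the mouse as a block. With all libraries and the block, none of the 10 passed (edgeR adjusted p = 0.112 for Nlrc5 and 0.197 for Psmb10). With the block and without the SR9009 library of mouse 1, 8 of the 10 fell, all but B2m and H2-D1, where 9.7% of genes fell. Their log2 fold changes were then −1.18 for Psmb10, −0.67 for Psmb8, −0.65 for Nlrc5, −0.59 for Tap2, −0.55 for Psmb9, −0.47 for Tapbp, −0.40 for Tap1 and −0.29 for H2-K1, with adjusted p between 0.00126 and 0.0352.

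SR9009 against DMSO asks what the agonist did without LPS. Of the 10 log2 fold changes 9 were below 0, and 7 genes were lower in 4 of 4 mice, as were 12.8% of all genes. None of the 10 passed in edgeR, where 0.313% of all genes rose and 0.566% fell. DESeq2, limma-voom and limma on FPKM called 0 of 10. The ranges were apart for 4 of the 10 (Nlrc5, Psmb8, Psmb9 and Psmb10), and in this direction for 4.64% of all genes. The median of the 10 was −0.70, beside 0.01 over all genes, and −0.48 without the SR9009 library of mouse 1, beside −0.02.

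Psmb10 gave −1.19 (SE 0.52, adjusted p = 0.405) with all libraries and −0.85 (SE 0.23, adjusted p = 0.0842) without the SR9009 library of mouse 1. Psmb9 gave −0.90 (SE 0.40, adjusted p = 0.411) and −0.60 (SE 0.19, adjusted p = 0.182) in the same order, and Tapbp −0.76 (SE 0.26, adjusted p = 0.274) and −0.60 (SE 0.21, adjusted p = 0.257). Nlrc5 averaged 47.4 ± 12.8 CPM in the 4 SR9009 libraries, or 53.6 ± 3.90 CPM in the 3 without mouse 1, against 77.7 ± 17.1 CPM in DMSO libraries. Its log2 fold change was −0.71 (SE 0.27, adjusted p = 0.327). Psmb8 stood at −0.69, Tap1 at −0.76, H2-K1 at −0.41, Tap2 at −0.41 and H2-D1 at −0.14 (adjusted p between 0.412 and 0.863). Tap2 was close to 0 without the library of mouse 1, at −0.10, and H2-D1 changed sign to 0.07. In the same setting Psmb8 gave −0.44 (SE 0.14, adjusted p = 0.160), Tap1 −0.51 (SE 0.26, adjusted p = 0.580), Nlrc5 −0.58 and H2-K1 −0.33, none of which passed.

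B2m was alone among the 10 with a log2 fold change above 0, 0.84 (SE 0.44, adjusted p = 0.473), and without the SR9009 library of mouse 1 it was −0.24 (SE 0.17, adjusted p = 0.780). The 4 SR9009 libraries averaged 4632 ± 4749 CPM and the 3 without mouse 1 2259 ± 249 CPM, against 2595 ± 313 CPM in DMSO libraries. Without that library 0 of the 10 passed in edgeR without the block, where 1.08% of 13645 genes fell. With the block as well, Tapbp (−0.56), Psmb8 (−0.48), Psmb9 (−0.60) and Psmb10 (−0.95) fell, with adjusted p of 0.0271, 0.0358, 0.00869 and 0.0225, where 2.57% of genes fell.

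**Figure D1:**
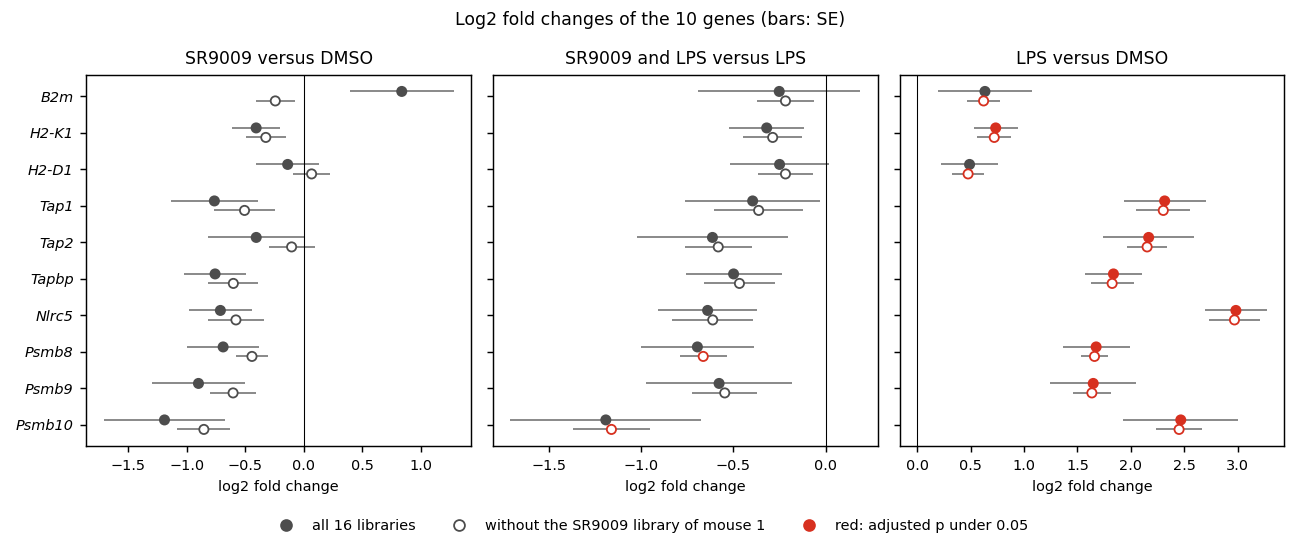
Log2 fold changes of the 10 genes (horizontal axis, bars SE) in 3 comparisons, from all 16 libraries (filled) and without the SR9009 library of mouse 1 (open); red marks an adjusted p under 0.05. The bars are shorter without that library, B2m crosses 0 in SR9009 versus DMSO (0.84 filled, −0.24 open), and Psmb8 and Psmb10 turn red in SR9009 and LPS versus LPS.

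Whether the agonist's effect differed between cells with and without LPS was tested as an interaction, counted as higher where SR9009 raised a gene more in the presence of LPS. None of the 10 genes passed in either direction, where 0% of all genes were higher and 0.00744% (1 gene) lower in edgeR. At an unadjusted p under 0.05 there were 0 of 10, and DESeq2 and limma-voom called 0. The estimates ran from −1.09 for B2m (SE 0.62) to 0.37 for Tap1 (SE 0.52). Without the SR9009 library of mouse 1, B2m stood at 0.03 (SE 0.23). Psmb10 had an SE of 0.76 with all libraries, the widest of the 10, and of 0.30 without that library. An interaction of that size, or somewhat larger, could thus be missed for Psmb10.

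The SR9009 library of mouse 1 differed from its group in opposite directions within the gene set. Against the mean of the other 3 SR9009 libraries, B2m stood at 5.20 times their CPM. H2-K1 stood at 0.667, Nlrc5 at 0.537, Tapbp at 0.485, H2-D1 at 0.366, Psmb8 at 0.269, Tap1 at 0.250, Psmb9 at 0.157, Tap2 at 0.148 and Psmb10 at 0.0657 times. B2m made up 1.34% of all counts in that library and 0.246% to 0.355% in the other 15. The same mouse's DMSO library differed from the other 3 DMSO libraries by −0.12 to 0.25 on the log2 scale over the 10 genes, and its LPS library from the other LPS libraries by −0.30 to 0.16. Its SR9009 and LPS library differed by −1.10 (Nlrc5) to 0.29 (B2m), with Psmb10 at −0.94 and Tap2 at −0.62. The part of the library's lower depth and higher mitochondrial share in these values was not tested.

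**Figure D2:**
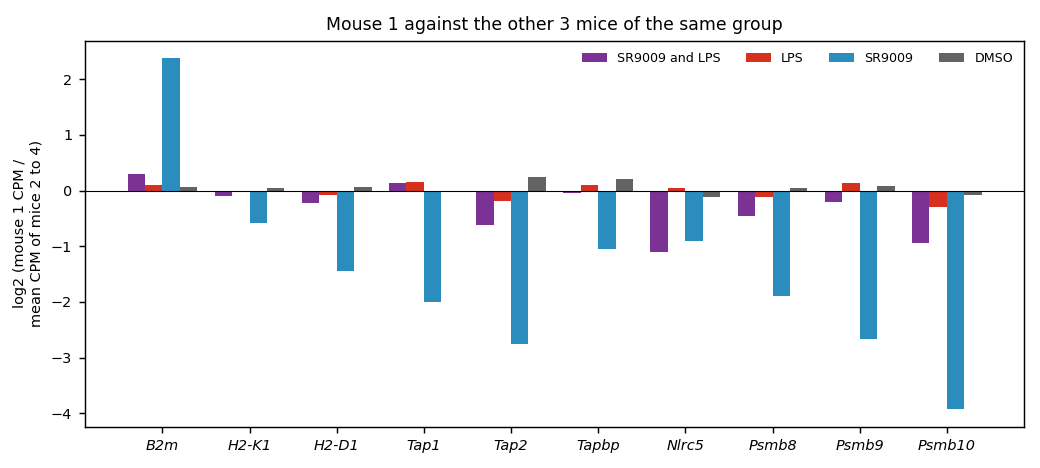
Log2 ratio of the CPM of the mouse 1 library to the mean CPM of mice 2 to 4 in the same group (vertical axis), for each of the 10 genes and 4 groups (bar colours). In the SR9009 group B2m lies at 2.38 and the other 9 genes between −0.58 and −3.93, while the LPS and DMSO bars stay between −0.30 and 0.25.

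Each immunoproteasome subunit takes the place of 1 constitutive subunit, so their transcripts were also compared as ratios of counts per kilobase within a library, which do not depend on library scaling. In mice 1 to 4, Psmb10 to Psmb7 was 3.62, 5.52, 5.22 and 6.11 with SR9009 and LPS, 9.09, 11.9, 9.31 and 10.8 with LPS, 0.135, 2.16, 2.09 and 1.61 with SR9009, and 3.57, 5.36, 3.00 and 2.90 with DMSO. All LPS libraries lay above all others, and all SR9009 libraries below all others. Psmb8 to Psmb5 was 0.711, 0.822, 0.528 and 0.452 with SR9009 and LPS, 1.33, 1.20, 0.957 and 0.997 with LPS, 1.40, 0.424, 0.298 and 0.286 with SR9009, and 0.648, 0.655, 0.573 and 0.588 with DMSO. The SR9009 library of mouse 1 was the highest of all 16 here, with Psmb5 at 4.74 CPM in it, against 66.9 to 79.0 CPM in the other 3 SR9009 libraries. Psmb9 to Psmb6 was 0.818, 0.831, 0.361 and 0.362 with SR9009 and LPS, 1.02, 0.977, 0.593 and 0.580 with LPS, 0.185, 0.382, 0.245 and 0.223 with SR9009, and 0.608, 0.585, 0.472 and 0.480 with DMSO. For this ratio mice 1 and 2 lay above mice 3 and 4 in every group except SR9009, where mouse 1 was lowest.

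The differences in mean log2 ratio were tested for 4 ratios in 4 comparisons, 16 tests in all. With 4 libraries against 4 the smallest two-sided exact p is 0.0286, and the smallest adjusted p was 0.0653. Psmb10 to Psmb7 had that exact p in every comparison: it differed by 1.51 on the log2 scale in LPS against DMSO, −1.03 in SR9009 and LPS against LPS, −1.85 in SR9009 against DMSO and 2.34 in SR9009 and LPS against SR9009. Without the SR9009 library of mouse 1 the last 2 were −0.89 and 1.38, where 3 libraries against 4 allow no exact p below 0.0571. Psmb8 to Psmb5 differed by 0.85 in LPS against DMSO and by −0.86 in SR9009 and LPS against LPS, both with the smallest exact p, and by −0.37 in SR9009 against DMSO (exact p = 0.600), or −0.89 without the SR9009 library of mouse 1. Psmb9 to Psmb6 differed by −1.10 in SR9009 against DMSO with the smallest exact p, and by −0.95 without that library. Its differences in LPS against DMSO and in SR9009 and LPS against LPS were 0.52 and −0.49 (exact p = 0.143 and 0.286). Within mice the first was higher in 4 of 4 and the second lower in 4 of 4, with a sign-flip exact p of 0.125 each, the smallest that 4 mice allow. None of the 16 passed after adjustment, and 7 of them had the smallest exact p. With that smallest p and 16 tests, a ratio could not pass on its own however large its difference. Not passing therefore does not show that a ratio was unchanged.

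The ratio of B2m to the mean of H2-K1 and H2-D1 per kilobase lay in a narrow range outside 1 library. It was 4.50, 3.14, 3.77 and 2.98 with SR9009 and LPS, 3.77, 3.55, 3.24 and 3.36 with LPS, 33.6, 2.86, 3.01 and 3.25 with SR9009, and 3.41, 3.31, 3.36 and 3.50 with DMSO, in mice 1 to 4. The value of 33.6 in the SR9009 library of mouse 1 stood apart from the other 15, which lay between 2.86 and 4.50. In LPS against DMSO the difference was 0.03 on the log2 scale (exact permutation test, two-sided p = 0.600, adjusted p = 0.738).

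**Figure D3:**
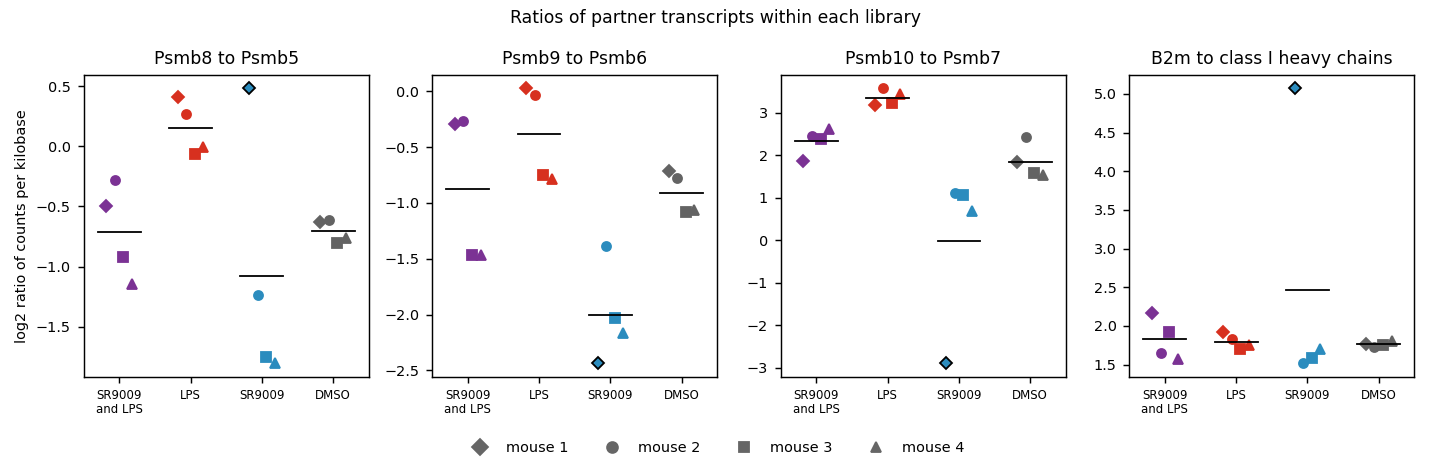
Log2 ratio of counts per kilobase of partner transcripts within each library (vertical axis, separate range per panel) in the 4 groups; points are libraries, shapes mice, lines group means, and the black-edged diamond is the SR9009 library of mouse 1. Psmb10 to Psmb7 is highest with LPS (linear 9.09 to 11.9) and lowest with SR9009 (linear 0.135 to 2.16), and the B2m ratio departs from the rest in 1 library only (linear 33.6).

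The constitutive partners were also measured one by one. In LPS against DMSO, Psmb7 rose by 0.97 and Psmb6 by 1.13 on the log2 scale (edgeR adjusted p = 0.000113 and 0.0223), and Psmb5 gave 0.84 (SE 0.52, adjusted p = 0.214), or 0.82 (SE 0.19, adjusted p = 0.00200) without the SR9009 library of mouse 1. In SR9009 and LPS against LPS, Psmb7 stood at −0.21, Psmb6 at −0.03 and Psmb5 at 0.20 (adjusted p = 0.616, 0.988 and 0.931). In SR9009 against DMSO with all libraries, Psmb7 stood at 0.08, Psmb6 at 0.08 and Psmb5 at 0.11 (adjusted p = 0.867, 0.945 and 0.944). Without the SR9009 library of mouse 1, Psmb6 stood at 0.33 (SE 0.22, adjusted p = 0.765) and Psmb5 at 0.45 (SE 0.20, adjusted p = 0.471). Psmb5 then averaged 74.0 ± 6.31 CPM in 3 SR9009 libraries, against 52.6 ± 2.31 CPM in DMSO libraries, with no overlap. Psmb6 likewise lay at 82.2 to 98.5 CPM in those 3 SR9009 libraries, against 64.8 to 74.5 CPM in DMSO libraries. Of the other 11 subunits of the proteasome core, 8 rose with LPS against DMSO and 0 fell, where 19.4% of all genes rose and 20.4% fell. Psma6 (2.72), Psma5 (1.45) and Psma4 (1.22) had the smallest p of these. Of 8 activators and assembly factors 4 rose and 1 fell against the same background: the subunits of the interferon-inducible PA28 activator, Psme1 (1.60) and Psme2 (2.55), were among those that rose, with Psme4 (1.11), and the assembly chaperone Psmg2 fell (−0.91).

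Beyond the 10 genes, 5 of 9 other class I heavy chain genes rose with LPS against DMSO and 1 fell, where 19.4% of all genes rose and 20.4% fell, which is the background of the other counts in this comparison too. H2-T22 (2.70), H2-T24 (2.10) and H2-M3 (1.00) had the smallest p of these, and Mr1, which presents microbial vitamin metabolites, fell, at −2.28 (SE 0.68, adjusted p = 0.0141). Those heavy chains that share sequence with H2-K1 and H2-D1 carry the same uncertainty. Of 10 genes for peptide loading and trimming 4 rose and 0 fell, with Npepps (1.41), a cytosolic aminopeptidase, Lap3 (1.24), another, and Tapbpl (1.46), the tapasin-related peptide editor, first by p. Over the 7 lists together 33 of 64 tested genes rose and 4 fell with LPS against DMSO. In SR9009 and LPS against SR9009, 29 of these 64 rose and 2 fell, where 14.5% of all genes rose and 15.8% fell. Without the SR9009 library of mouse 1 these counts were 45 and 7 in LPS against DMSO, where 26.8% of all genes rose. They were then 45 and 4 in SR9009 and LPS against SR9009, where 22.7% of all genes rose. With all libraries, those with the smallest p per list in SR9009 and LPS against SR9009 were H2-T24 (3.14), H2-T22 (2.89) and H2-Q7 (2.55) of the heavy chains, Tapbpl (1.86), Npepps (0.95) and Lnpep (1.50) of loading and trimming, Psme1 (1.38) and Psme2 (2.64) of the activators, and Psma6 (1.85), Psma5 (1.07) and Psmb2 (0.69) of the core. Among constitutive subunits Psmb7 (0.68) and Psmb6 (1.02) rose and Psmb5 gave 0.93 (SE 0.52, adjusted p = 0.192). Without the SR9009 library of mouse 1, Psmb5 passed at 0.61 (SE 0.21, adjusted p = 0.0277) and Psmb6 stood at 0.77 (SE 0.23, adjusted p = 0.0136). Of the class II genes H2-Ab1 rose (1.98).

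Of 18 tested regulators of class I transcription 10 rose with LPS against DMSO and 1 fell, where 19.4% of all genes rose and 20.4% fell. Nfkb1 (1.71), an NF-kB subunit, and Ifnar1 (1.44), a type I interferon receptor chain, rose, and Ifngr1, the ligand-binding chain of the interferon gamma receptor, fell (−1.98). Irf1, a transcription factor of class I promoters, rose by 1.81 (SE 0.38, adjusted p = 0.00144). In SR9009 against DMSO Irf1 gave −0.92 (SE 0.38, adjusted p = 0.372). In SR9009 and LPS against LPS, Irf1 stood at 0.14 (SE 0.37, adjusted p = 0.935). In SR9009 and LPS against SR9009, 9 regulators rose and 1 fell, where 14.5% of all genes rose and 15.8% fell, with Nfkb1 at 1.84, Stat2 at 3.68 and Irf1 at 2.88.

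Of the 64 genes of the 7 lists 0 passed in edgeR in SR9009 and LPS against LPS, where 1.06% of all genes rose and 0.737% fell. There DESeq2 called 4 lower and limma-voom 1 lower, but their shares over all genes are not given here, and the edgeR shares are no background for them. Psme1 was closest, at −0.71 (SE 0.18, adjusted p = 0.0578) and lower in 4 of 4 mice, and passed with the mouse as a block (adjusted p = 0.0320). The 8 genes that passed in this comparison without the SR9009 library of mouse 1 were all lower, where 4.79% of all genes fell. In SR9009 against DMSO, DESeq2 called 9 and limma-voom 2 lower, again with no share over all genes given. In edgeR 3 of 64 fell there and 0 rose, where 0.566% and 0.313% of all genes did. Among them were the class II genes Ciita, the class II transactivator, at −3.47 (SE 0.67, adjusted p = 0.0232), and Cd74, the invariant chain, at −2.17 (SE 0.49, adjusted p = 0.0470). Without the SR9009 library of mouse 1 Cd74 no longer passed, at −2.24 (SE 0.56, adjusted p = 0.0622). Ciita had 1.22 ± 1.08 CPM in SR9009 libraries and 14.0 ± 4.47 CPM in DMSO libraries, and it also fell with LPS against DMSO at −4.73 (SE 0.74, adjusted p = 0.000111), where its class I counterpart Nlrc5 rose.

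The 10 genes varied together across libraries apart from B2m. Over the 16 libraries, the 36 pairs without B2m had a median Pearson r of 0.950 in log2 CPM (0.710 to 0.990). The 9 pairs with B2m had a median of −0.15 (−0.43 to 0.13), and 0.878 (0.785 to 0.937) in the 15 libraries without the SR9009 library of mouse 1. These values describe libraries that share treatments, mice and depth. Among 9727 other genes averaging 5 CPM or more, those whose log2 CPM followed the mean of the 10 standardised profiles most closely over the 16 libraries were Otud5 (r = 0.993), Rnf114 (0.991), Uba7 (0.990), Cebpd (0.990) and Lgals9 (0.989). With that library left out the list read Otud5, Stard3, Cebpd, Shisa5 and Gsdmd, so Otud5 and Cebpd were in both.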

How the data were processed

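Poly(A) RNA was selected, per the labels' protocols. HISAT2 and the build GRCm39 (mm39) are named in the submitters' processing notes, and the aligner version, strandedness, annotation release and counting tool were not given in the sources used here. For each gene, the deposited table held raw counts for 16 libraries, and its deposited FPKM values were scaled by the authors. Counts were tested with R 4.3.3 and edgeR 4.0.16 (robust quasi-likelihood, filterByExpr with minimum count 10 and minimum total 15, TMM scaling, 1 mean per group over all 16 libraries, n = 4 each); limma 3.58.1, DESeq2 1.42.0 and Python 3.11.15 served for alternatives, tables and figures. CPM used TMM-scaled sizes, with SD over libraries; the direction per mouse used log2 CPM with 0.5 added. The SE was obtained from the log2 fold change and the square root of F, as their quotient. The threshold was 0.05 on the Benjamini-Hochberg adjusted p. The edgeR steps were tested on simulated data.

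The mouse number in the titles was taken to mark the animal. Deviations from group means correlated at 0.0604 to 0.623 over 24 same-mouse pairs (median 0.287). Over 72 pairs of different mice they correlated at −0.648 to 0.596 (median −0.0835). These ranges overlap, so the pairing rests on the titles. The members and lists were chosen with earlier results of these data known. All 10 members are named; of each list, the up to 3 called genes with the smallest p per comparison are named, besides Irf1, Ciita and the constitutive subunits; Mr1, Psmg2 and, in SR9009 and LPS against LPS, Psme1 were named after their values were seen, and 1 gene is not reported here. Nothing in the sources says whether cultures were handled separately beyond the mouse. Total counts and the precision they give are limited by 12616442 counts in the shallowest library.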

Additional observations from a re-analysis of the deposited data

Results flagged for a closer look

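For 3 of the 40 combinations of a gene and a group, the gap between the farthest library and its nearest neighbour, divided by the range of the 4 libraries, exceeded Dixon's 95% critical value for 4 samples. Chance alone gives about 1 in 20. B2m stood at 11748 CPM in the SR9009 library of mouse 1, above 1984 to 2470.3 CPM in the other 3 SR9009 libraries. This value was known to stand apart when the genes were chosen, so its flag describes it and cannot be set against that rate. H2-D1 stood at 4636 CPM in the LPS library of mouse 2, above 3593 to 3746 CPM in the other LPS libraries. Tap2 stood at 156 CPM in the SR9009 and LPS library of mouse 1, below 231 to 246 CPM in the other libraries of that group.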

How the results depend on the processing

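Over the alternatives (scaling, low-count filter, tool, FPKM, compared groups alone, replicate block, libraries left out), 664 of 735 values of the members' log2 fold changes kept direction and side of the threshold, 27 newly passed, 5 no longer passed and 39 changed sign. Of the 88 log2 ratios 7 changed sign. Ratio values with the replicate block equal the main values by arithmetic, so they could not change and say nothing on stability. The cause of the changes was not tested. The number of members lower in SR9009 versus DMSO was 0 with all libraries, 0 to 1 with a mouse or library left out (1 without mouse 1), 0 with the replicate block, and 4 with the block and without the SR9009 library of mouse 1. In SR9009 and LPS versus LPS it was 0, 0 to 2 with a mouse or library left out (2 without mouse 1), 0 with the replicate block, 2 with the compared groups alone (Psmb8 and Psmb10), and 8 with the block and without that library. The replicate block on all libraries changed no call of a member, while over all genes it gave 69 higher and 129 lower in SR9009 versus DMSO (42 and 76 without it), and 296 and 239 in SR9009 and LPS versus LPS (142 and 99 without it). The compared groups alone give no value for the interaction. H2-K1 was the member whose LPS call was lost, in LPS versus DMSO without the low-count filter (adjusted p = 0.0506) and in SR9009 and LPS versus SR9009 with the compared groups alone (0.0655) or without mouse 4 (0.0677).

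Sign changes were at B2m, H2-D1 and the interaction. With the block and without the SR9009 library of mouse 1, SR9009 versus DMSO gave −0.20 for B2m and 0.057 for H2-D1, and SR9009 and LPS versus SR9009 gave 0.60 for B2m (0.033 on FPKM). With libraries left out, B2m ran from −0.24 to 1.12 and H2-D1 from −0.31 to 0.079 in SR9009 versus DMSO, and B2m from −0.67 to 0.65 in SR9009 and LPS versus SR9009. No interaction passed. For Psmb8 they were 0.017 with RLE scaling, 0.060 with upper-quartile scaling, 0.072 without the filter, 0.017 with DESeq2, 0.15 with limma-voom, 0.13 on FPKM and 0.069 with the block (−0.22 to 0.11 with libraries left out). For Psmb10 they were 0.029, 0.062, 0.072, 0.030, 0.40, 0.37 and 0.17 in the same order (−0.31 to 0.20). H2-D1 gave 0.0001 with limma-voom and 0.0047 on FPKM (−0.28 to 0.053), Tap2 0.055 and 0.029, Nlrc5 −0.056 on FPKM and −0.023 with the block without the SR9009 library of mouse 1 (−0.17 to 0.23), and B2m ran from −1.33 to 0.027. The log2 ratio of B2m to the heavy chains, with libraries left out, ran from −0.16 to 1.01 in SR9009 versus DMSO, −0.045 to 0.10 in SR9009 and LPS versus LPS, −0.0031 to 0.065 in LPS versus DMSO and −0.96 to 0.23 in SR9009 and LPS versus SR9009.

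Counts over all genes ranged with the setting from 1 to 235 higher and 0 to 351 lower in SR9009 versus DMSO, 2 to 1577 and 3 to 1323 in SR9009 and LPS versus LPS, 1817 to 4017 and 1689 to 4830 in LPS versus DMSO, 1236 to 3415 and 986 to 3430 in SR9009 and LPS versus SR9009, and 0 to 163 and 0 to 108 for the interaction. Upper-quartile scaling moved the median of all genes to −0.28 in LPS versus DMSO and −0.25 in SR9009 and LPS versus SR9009. Psmb10 had the lowest count of a member in any library, 45 in the SR9009 library of mouse 1. Scaled to library size it was also low there, at 3.14 CPM against 41.1 to 51.4 CPM in the rest of its group. The part of depth in this value was not tested.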
